A study of Rattus norvegicus with 6 samples.

Results

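The complement genes described here are C3, C1s, C1r, Cfb, Cfi, Cfd, Serping1, Cd55 and Cd59, 9 genes that take 10 entries of the 33508 in the gene table because Cfb is listed at 2 overlapping places. They were chosen by gene name as complement genes of stromal cells, on measured values of the comparison described below, because C3 and C1s fell strongly in it. Their levels in this comparison are therefore given as a description, without a test. RNA-seq was performed on rat bone marrow mesenchymal stem cells (BMSCs), 3 libraries of BMSCs-OE-FNDC5, which overexpress FNDC5 from a lentivirus, and 3 of BMSCs-OE-NC, which carry the blank lentivirus. FNDC5 is the membrane protein from which the hormone irisin is cleaved. By the study's methods, both groups came from the femurs and tibias of male Sprague–Dawley rats aged 2 months and were passaged 3 times. Transduction took 72 h at 10 infectious units per cell, with the medium holding virus replaced the next day. Both were then kept for 24 h under hypoxia and serum deprivation (H/SD), in medium free of glucose and serum at 1% O2, 94% N2 and 5% CO2, so no library shows these genes in unstressed cells. The labels call the libraries of a group biological replicates without saying whether they came from separate cultures or animals, and the p-values below measure only the spread between these libraries.

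Complement is a cascade of plasma proteins that tags and lyses cells and microbes. Its classical pathway starts when C1q binds a target and activates the proteases C1r and C1s, which C1 inhibitor (Serping1) blocks. All pathways meet at C3, whose cleavage is amplified by factor B (Cfb) and factor D (Cfd) in the alternative pathway and is held in check by factor I (Cfi) and decay-accelerating factor (Cd55). Cd59 protects cells at the end of the cascade by blocking the membrane attack complex. Much of plasma complement comes from the liver, but fibroblasts and other stromal cells are known to secrete C1r, C1s, C3 and C1 inhibitor.

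Total counts were 16640635 to 17229490 in BMSCs-OE-FNDC5 and 17430287 to 17965722 in BMSCs-OE-NC. TMM scaling factors, which allow for differences in RNA composition, were 0.877 to 0.882 in BMSCs-OE-FNDC5 and 1.13 to 1.14 in BMSCs-OE-NC. Fndc5 had 64195 to 65589 counts in BMSCs-OE-FNDC5 and 17 to 25 counts in BMSCs-OE-NC, so the transgene followed the labels in every library. Of 12 mesenchymal stem cell markers, 11 were tested, and with TMM scaling 7 were lower and 3 higher in BMSCs-OE-FNDC5, and their summed level was 5334 to 5738 CPM (counts scaled to a common library size) in BMSCs-OE-FNDC5 and 7536 to 8103 CPM in BMSCs-OE-NC. Of 9 macrophage and monocyte markers in the table, Cd14 and Cd68 were tested and both were higher. Cd68 did not pass with library size as the only scaling, nor with the dependence of counts on gene length removed. The summed level of the 9 was 198 to 206 CPM in BMSCs-OE-FNDC5 and 98.2 to 103 CPM in BMSCs-OE-NC. Nearly all of it was Cd14, at a mean of 197 CPM in BMSCs-OE-FNDC5 and 98.5 CPM in BMSCs-OE-NC, and Ptprc, Adgre1, Aif1 and Cd163 were at 0. Hepatocyte markers summed to at most 0.205 CPM in BMSCs-OE-FNDC5 and 0.349 CPM in BMSCs-OE-NC. Of all genes tested, 38.8% were lower and 36.9% higher in BMSCs-OE-FNDC5. The part of the marker differences in the complement values was not tested.

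In BMSCs-OE-FNDC5 the 9 genes together held a smaller share of the counts, and C3, Serping1 and C1s had the lowest log2 fold changes. The share of the 9 was 0.138%, 0.137% and 0.139% of all counts in BMSCs-OE-FNDC5, against 0.485%, 0.489% and 0.490% in BMSCs-OE-NC. It is taken over total counts without TMM, and with library size only the median gene tested was at −0.41 log2 units. C3 and C1s, known to fall when the genes were chosen, are part of the sum, so nothing is read from it. C1s alone had 8398, 8074 and 8411 counts in BMSCs-OE-FNDC5, against 36161, 36109 and 35847 counts in BMSCs-OE-NC. C3, C1s, C1r, Serping1 and Cd55 were lower in BMSCs-OE-FNDC5, and Cfd and Cd59 were not separated between the groups. Cfi and Cfb had too few counts to be tested. In a bulk RNA sample, fewer cells of a type and less RNA per cell cannot be told apart.

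Of the 9 genes, 7 passed the filter on low counts. edgeR's quasi-likelihood test was run over 12104 genes and adjusted p-values under 0.05 were called, but no call is given for the 9 genes. Lower calls made up 38.8% of all genes tested and higher calls 36.9%. With library size as the only scaling, 6709 genes were lower and 2659 higher, instead of 4692 lower and 4469 higher. C3, C1s, C1r, Serping1 and Cd55 had all 3 BMSCs-OE-FNDC5 libraries below all 3 BMSCs-OE-NC libraries, as did 40.4% of all genes tested. Since the 9 genes were chosen with this comparison known, nothing is read from how many of them were lower.

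The proteases of the C1 complex came first in abundance. C1r, which cleaves and activates C1s, stood at 832, 836 and 862 CPM in BMSCs-OE-FNDC5, against 1626, 1602 and 1617 CPM in BMSCs-OE-NC. The groups did not overlap, and the mean was 843 ± 16.3 CPM in BMSCs-OE-FNDC5 and 1615 ± 12.2 CPM in BMSCs-OE-NC (SD, n = 3 each). The log2 fold change was −0.94 (standard error 0.02), a level 1.91-fold lower in BMSCs-OE-FNDC5. C1s, which cleaves C4 and C2, stood at 555, 551 and 557 CPM in BMSCs-OE-FNDC5, against 1776, 1800 and 1811 CPM in BMSCs-OE-NC. Here, too, every BMSCs-OE-FNDC5 library lay far below every BMSCs-OE-NC library, with a log2 fold change of −1.70 (standard error 0.02), or 3.24-fold lower.

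C1r and C1s act as a pair in the C1 complex, but their transcripts did not move by the same factor. On the FPKM scale, which divides by gene length, the level of C1s per unit of C1r was 0.613, 0.604 and 0.593 in BMSCs-OE-FNDC5, against 1.00, 1.03 and 1.03 in BMSCs-OE-NC. This ratio is taken within a library and does not depend on how libraries are scaled. It averaged 0.603 ± 0.00981 in BMSCs-OE-FNDC5 and 1.02 ± 0.0156 in BMSCs-OE-NC (SD, n = 3 each), so nearly equal levels in BMSCs-OE-NC stood beside an excess of C1r in BMSCs-OE-FNDC5.

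Serping1 encodes C1 inhibitor, the serpin that removes C1r and C1s from the activated complex. It had 78.7, 71.7 and 74.9 CPM in BMSCs-OE-FNDC5, against 303, 291 and 285 CPM in BMSCs-OE-NC. All BMSCs-OE-FNDC5 libraries were lower, the log2 fold change was −1.96 (standard error 0.04), and the level was 3.90-fold lower. The inhibitor was also low relative to its proteases: its FPKM per summed FPKM of C1r and C1s was 0.0814 ± 0.00405 in BMSCs-OE-FNDC5 and 0.132 ± 0.00448 in BMSCs-OE-NC (SD, n = 3 each). Together C1r, C1s and Serping1 made up 94.9 ± 0.218% of the summed FPKM of the 9 genes in BMSCs-OE-FNDC5 and 91.4 ± 0.200% in BMSCs-OE-NC.

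C3, the protein on which the pathways converge, had the lowest fold change of the 9 genes. It had 864, 819 and 780 counts in BMSCs-OE-FNDC5, against 10557, 10828 and 10638 counts in BMSCs-OE-NC. After scaling these were 57.1, 55.9 and 51.7 CPM in BMSCs-OE-FNDC5, against 519, 540 and 537 CPM in BMSCs-OE-NC. The groups lay far apart: the log2 fold change was −3.28 (standard error 0.04), a level 9.69-fold lower in BMSCs-OE-FNDC5. Of the 12104 genes tested, 48 had a lower fold change than C3, compared with 426 for Serping1, 691 for C1s and 2350 for C1r. Relative to C1r, C3 stood at 0.0348 ± 0.00246 on the FPKM scale in BMSCs-OE-FNDC5 and at 0.176 ± 0.00499 in BMSCs-OE-NC (SD, n = 3 each).

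The gene table gives C3 (ENSRNOG00000046834) at chromosome 9, 9721105 to 9747167, plus strand. C1s (ENSRNOG00000011971) lies on chromosome 4 from 157143592 to 157155609 on the minus strand and C1r (ENSRNOG00000011796) from 157125998 to 157136829 on the plus strand. The ends of C1r and C1s therefore face each other across 6763 bases. Serping1 (ENSRNOG00000007457) is on chromosome 3, 72161189 to 72171078, minus strand, and Cd55 (ENSRNOG00000003927) on chromosome 13, 47126741 to 47154292, minus strand. Cd59 (ENSRNOG00000042821) is on chromosome 3, 94010475 to 94028621, plus strand, Cfd (ENSRNOG00000033564) on chromosome 7, 12634216 to 12635943, minus strand, and Cfi on chromosome 2, 235264219 to 235305781, plus strand. The table names no genome build for these positions, and the values are sums over whole genes with no exon or isoform apart.

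Promoter windows of 5 of the 9 genes (C3, C1r, Cfi, Cfd and Cd55) were found in the RefSeq table of rat build GRCr8. Those of C3, C1r and Cd55 are shown because these genes cover the range of the lower values, from C3 at −3.28 to Cd55 at −0.49 (log2 fold change). Each line gives the 250 bases before the start site, 5′ to 3′ on the gene's strand. They are C3 at chr9:2201340-2201589 (minus strand), C1r at chr4:159098763-159099012 (plus strand) and Cd55 at chr13:44438102-44438351 (minus strand). The gene positions given above, of an unnamed build, put C3 on the plus strand instead, and the reason for this difference was not tested. Capitals mark matches to a C/EBP-type motif (TTNNGNAA) in C3 and C1r and to a GC box (GGGCGG) in Cd55, where they read as its reverse complement.
C3: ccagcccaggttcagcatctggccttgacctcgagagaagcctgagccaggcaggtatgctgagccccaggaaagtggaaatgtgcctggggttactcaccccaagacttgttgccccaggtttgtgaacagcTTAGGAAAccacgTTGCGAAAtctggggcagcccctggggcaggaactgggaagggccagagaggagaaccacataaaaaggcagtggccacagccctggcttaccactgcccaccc
C1r: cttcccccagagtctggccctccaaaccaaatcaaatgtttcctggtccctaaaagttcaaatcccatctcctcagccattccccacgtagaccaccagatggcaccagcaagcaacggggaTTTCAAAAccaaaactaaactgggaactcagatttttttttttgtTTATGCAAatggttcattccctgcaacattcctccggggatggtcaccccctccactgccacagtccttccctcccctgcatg
Cd55: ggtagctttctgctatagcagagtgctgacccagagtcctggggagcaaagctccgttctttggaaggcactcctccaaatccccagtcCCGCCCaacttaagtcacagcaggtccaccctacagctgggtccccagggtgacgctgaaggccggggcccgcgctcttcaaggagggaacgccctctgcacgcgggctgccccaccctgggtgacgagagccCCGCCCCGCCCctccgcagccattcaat
The C3 window held the C/EBP-type letters at 2 places, −117 to −110 and −104 to −97 from the start site, the second of them on both strands. The C1r window held them at −128 to −121 on the opposite strand and at −83 to −76. The Cd55 window held 3 GC boxes on the opposite strand, of which the pair at −28 to −23 and −23 to −18 shares 1 base. Of the windows not shown, that of Cfd held 1 GC box at −162 to −157 on the opposite strand and no C/EBP-type letters. The Cfi window held neither motif. The C/EBP-type letters occurred in 37.2% and the GC box in 30.5% of 33469 promoter windows of the same length, so both are common. A GAS motif (TTCNNNGAA, in 7.67% of windows), an ISRE core (GAAANNGAA, 8.12%), an NF-kB-type motif (GGANTTTCC, 1.08%), an AP-1 motif (TGANTCA, 6.34%) and TATAAA (12.9%) were searched on both strands and had no match in the windows of the 5 genes. A match describes letters in the window and is not a binding site.

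Cfd was measured at a low level that did not separate the groups. Factor D, the protease that cleaves factor B and is also known as the fat-cell product adipsin, had 74, 57 and 60 counts of Cfd in BMSCs-OE-FNDC5, against 93, 84 and 58 counts in BMSCs-OE-NC. The groups overlapped at 4.25 ± 0.558 CPM in BMSCs-OE-FNDC5 and 3.90 ± 0.857 CPM in BMSCs-OE-NC (SD, n = 3 each). The log2 fold change was 0.13 (standard error 0.20), and its sign turned to −0.24 with library size as the only scaling. Counts also followed gene length differently in the libraries, and with that trend removed Cfd was at −0.27. Adipocyte markers summed to 0.132 to 0.397 CPM in BMSCs-OE-FNDC5 and 0.0505 to 0.344 CPM in BMSCs-OE-NC. Cfd also overlaps Arhgap45 on the same strand, a gene with 48 counts over the 6 libraries.

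Factor B, the protease subunit of the alternative C3 convertase, had 0 counts of Cfb in every BMSCs-OE-FNDC5 library and a single count over the 3 BMSCs-OE-NC libraries. This does not measure a low level of its RNA. The longer of its 2 table entries (chromosome 20, 4536203 to 4561066, minus strand) contains the shorter one and overlaps C2 on the same strand, and how reads in shared bases were counted is not given in the sources used here. Factor I, the protease that inactivates C3b, had 0, 0 and 1 counts of Cfi in BMSCs-OE-FNDC5, against 3, 5 and 0 counts in BMSCs-OE-NC. Cfi has 1 table entry that is not shared in this way, and its near absence goes against calling it a product of these stromal cells.

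Of the membrane regulators, Cd55 was well measured and Cd59 had few counts. Cd55 encodes decay-accelerating factor, which breaks up C3 convertases on the cell surface. It stood at 40.9, 40.1 and 41.3 CPM in BMSCs-OE-FNDC5, against 53.4, 57.6 and 61.1 CPM in BMSCs-OE-NC, without overlap. Its log2 fold change of −0.49 (standard error 0.06) was the closest to 0 among the 5 lower genes, and it was −0.86 with library size as the only scaling and −0.14 with the trend with gene length removed. Because C3 was so much lower, FPKM of Cd55 per FPKM of C3 was 1.25 ± 0.0808 in BMSCs-OE-FNDC5 and 0.181 ± 0.00908 in BMSCs-OE-NC (SD, n = 3 each). Cd59, which blocks the last step of the membrane attack complex, had 11, 12 and 5 counts in BMSCs-OE-FNDC5, against 11, 17 and 20 counts in BMSCs-OE-NC. These overlapping counts gave a log2 fold change of −0.35 with a standard error of 0.46, an error that spans the value of Cd55.

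**Figure D1:**
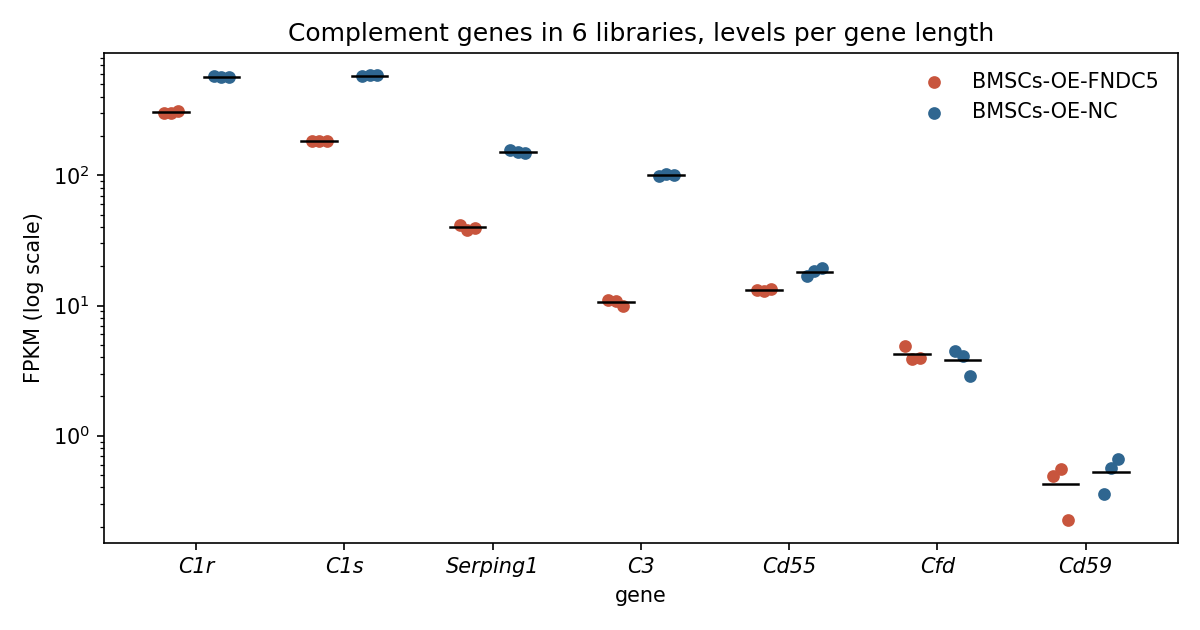
FPKM of 7 complement genes (log axis) in each of 3 BMSCs-OE-FNDC5 and 3 BMSCs-OE-NC libraries, with 1 point per library and a bar at the group mean. For C1r, C1s, Serping1, C3 and Cd55 the BMSCs-OE-FNDC5 points lie below the BMSCs-OE-NC points, as for C3 at 10.6 ± 0.543 and 101 ± 2.1 FPKM, while Cfd and Cd59 overlap. Cfi and Cfb, near or at 0, are not drawn.

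Per unit of gene length, the order of the levels differed between the groups. In BMSCs-OE-FNDC5, C1r was highest at 305 ± 6.14 FPKM, followed by C1s (184 ± 1.17 FPKM), Serping1 (39.8 ± 1.84 FPKM), Cd55 (13.2 ± 0.206 FPKM) and C3 (10.6 ± 0.543 FPKM). In BMSCs-OE-NC, C1s came first at 585 ± 4.71 FPKM, just ahead of C1r (573 ± 4.34 FPKM), and C3 (101 ± 2.1 FPKM) stood between Serping1 (153 ± 5.05 FPKM) and Cd55 (18.2 ± 1.18 FPKM), all as SD with n = 3. Adjacent genes among these 5 did not overlap between libraries in either group. The narrowest step was in BMSCs-OE-NC, where the lowest library of C1s had 579 FPKM and the highest library of C1r had 578 FPKM, so these are barely separated. Cfd was at 4.25 ± 0.554 FPKM in BMSCs-OE-FNDC5 and 3.83 ± 0.851 FPKM in BMSCs-OE-NC, above Cd59 at 0.422 ± 0.175 FPKM in BMSCs-OE-FNDC5 and 0.529 ± 0.157 FPKM in BMSCs-OE-NC (SD, n = 3 each).

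Among all entries of the table, C3 ranked 5069th, 5107th and 5295th by FPKM in the BMSCs-OE-FNDC5 libraries, against 938th, 893rd and 887th in the BMSCs-OE-NC libraries. C1s ranked 719th, 729th and 720th in BMSCs-OE-FNDC5, against 156th, 151st and 152nd in BMSCs-OE-NC. C1s was thus abundant in both groups, and C3 was moderately abundant in BMSCs-OE-FNDC5.

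The 5 lower genes were lower in each of 16 other analyses, which changed the scaling, the tool, the filter or the libraries used. C3 ranged between −3.65 and −2.60 on the log2 scale, C1s between −2.07 and −1.36, C1r between −1.31 and −0.67, Serping1 between −2.33 and −1.91 and Cd55 between −0.86 and −0.14. Cd59 ranged between −0.72 and −0.04 over 15 of these analyses, and Cfd, with both signs, between −0.27 and 0.25. Over all genes tested, the median was −0.04 log2 units with TMM, −0.41 with library size only and 0.09 with the trend with gene length removed, and each value above is to be read against it.

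With 3 libraries in each of 2 groups, a pattern like that of C3 is in the main a fold change of like size. Likeness was measured as the root mean square difference of gene-centred log2 CPM over the 6 libraries, among 7437 genes averaging 10 CPM or more. The nearest was Col14a1, a fibril-associated collagen, at a distance of 0.0435 and with 37.4 ± 3.40 CPM in BMSCs-OE-FNDC5 and 363 ± 12.9 CPM in BMSCs-OE-NC (SD, n = 3 each). It was followed by the LIM-domain gene Lmcd1 (0.0907), the heparan sulfate sulfotransferase Hs6st2 (0.218), the lipid phosphate phosphatase Plpp3 (0.224) and the copper oxidase ceruloplasmin, Cp (0.243). All 5 were lower in BMSCs-OE-FNDC5, with log2 fold changes between −3.74 for Cp and −2.86 for Hs6st2.

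Other parts of the complement system were measured less often. Of 49 further complement genes listed by role, 46 were in the table, 22 of them were at 0 in all 6 libraries, and 12 were tested. Of the 12, 6 were lower in BMSCs-OE-FNDC5, 2 were higher and 4 did not pass the test, with a median log2 fold change of −0.83 beside −0.04 over all genes tested. Of all genes tested, 38.8% were called lower and 36.9% higher, so nothing is read from the counts of these 12. Among the 22 genes at 0 were the C1q chains C1qa, C1qb and C1qc, the recognition part of the complex to which C1r and C1s belong. The anaphylatoxin receptors C3ar1 and C5ar1 were also at 0.

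The genes that fell came from several roles. Colec12, a membrane collectin that binds sugars, had 71.2 ± 3.75 CPM in BMSCs-OE-FNDC5 and 259 ± 7.87 CPM in BMSCs-OE-NC (SD, n = 3 each), and its log2 fold change was −1.86 (standard error 0.04, edgeR adjusted p = 2.0e-11). Masp1, a protease of the lectin pathway, had 444, 430 and 393 counts in BMSCs-OE-FNDC5, against 1290, 1239 and 1274 counts in BMSCs-OE-NC. Its log2 fold change was −1.16 (standard error 0.06, edgeR adjusted p = 7.2e-09), and its groups did not overlap.

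C2, the substrate of C1s that forms a C3 convertase, had 25, 32 and 23 counts in BMSCs-OE-FNDC5, against 70, 89 and 94 counts in BMSCs-OE-NC. Its log2 fold change of −1.23 (standard error 0.22, edgeR adjusted p = 3.8e-04) carries the same doubt as Cfb, which it overlaps. C4b, the other C1s substrate, averaged under 1 CPM and was picked out after its values were seen. It had 2, 1 and 2 counts in BMSCs-OE-FNDC5, against 29, 38 and 29 counts in BMSCs-OE-NC, and its log2 fold change was −3.76 (standard error 0.46, edgeR adjusted p = 2.0e-05). Reads may be split between C4b and its near-identical copy C4a. C4b also overlaps the gene LOC103689965 on the same strand, so its value carries the same doubt as Cfb.

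Of the regulators outside the 9 genes, 3 were tested, and Clu and Cr1l fell while Thbd did not pass. Clusterin (Clu), a secreted chaperone that keeps the terminal complex off membranes, had 112 ± 0.865 CPM in BMSCs-OE-FNDC5 and 237 ± 6.35 CPM in BMSCs-OE-NC (SD, n = 3 each). The difference was −1.08 log2 units (standard error 0.03, edgeR adjusted p = 1.3e-10). Cr1l, known as Crry in rodents and a membrane cofactor for the inactivation of C3b, had 188, 238 and 243 counts in BMSCs-OE-FNDC5, against 704, 810 and 675 counts in BMSCs-OE-NC. The groups were apart, with a log2 fold change of −1.28 (standard error 0.11, edgeR adjusted p = 9.4e-07).

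The rises were smaller. C8g, the lipocalin chain of C8, had 162, 128 and 142 counts in BMSCs-OE-FNDC5, against 105, 91 and 117 counts in BMSCs-OE-NC, and its log2 fold change was 0.89 (standard error 0.15, edgeR adjusted p = 2.4e-04). C1qbp, a largely mitochondrial protein that binds C1q, had 238 ± 11.0 CPM in BMSCs-OE-FNDC5 and 169 ± 8.31 CPM in BMSCs-OE-NC (SD, n = 3 each), with a log2 fold change of 0.49 (standard error 0.04, edgeR adjusted p = 1.3e-06). Neither rise reached the log2 value of 1, and both kept their sign under the other scalings. Calr, the chaperone calreticulin, which also binds C1q, stood at 2009 ± 41.1 CPM in BMSCs-OE-FNDC5 and 1979 ± 43.9 CPM in BMSCs-OE-NC (SD, n = 3 each; edgeR adjusted p = 0.40), but was called lower with library size only (−0.35). Thbd, thrombomodulin, had 16, 16 and 21 counts in BMSCs-OE-FNDC5, against 34, 24 and 18 counts in BMSCs-OE-NC (edgeR adjusted p = 0.80).

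**Figure D2:**
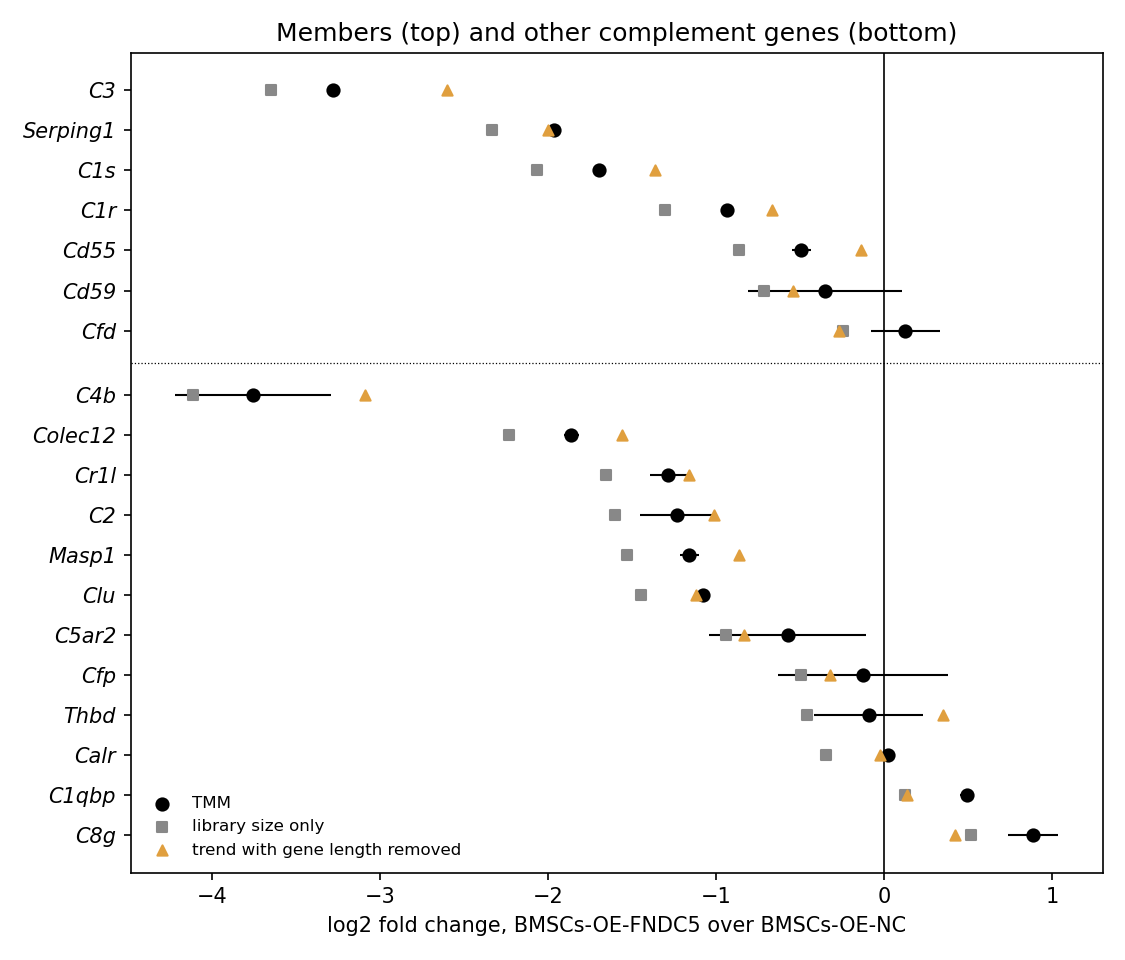
Log2 ratio of BMSCs-OE-FNDC5 to BMSCs-OE-NC for 7 of the complement genes (above the dotted line) and 12 further complement genes (below it), with TMM scaling (circles, with lines of 1 standard error), library size only (squares) and the trend with gene length removed (triangles). C3 at −3.28 lies furthest left in the upper block and C8g at 0.89 furthest right in the lower block, and the symbols of Cfd, Thbd and Calr lie on both sides of 0.

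Complement genes lie beside genes of other functions, and those within 100 kb were compared, a choice made after the values were seen. Of all genes tested, 36.9% were called higher and 38.8% lower, so nothing is read from the counts of calls near each gene. Near C3, Gpr108 and Trip10 were tested and both were higher in BMSCs-OE-FNDC5, with log2 fold changes of 0.28 and 0.75 (edgeR adjusted p = 5.5e-05 and 6.9e-07), although Gpr108 turned to −0.09 with library size only. Around C1r and C1s, all 4 other genes tested were higher, C1rl (0.30), Lpcat3 (0.30), Emg1 (0.56) and Phb2 (0.76), and C1rl and Lpcat3 both turned to −0.07 with library size only. C1rl encodes a C1r-like protease and lies 2552 bases from C1r, so the relative of C1r next to it did not fall with it. Around Serping1, Selenoh, Timm10 and Ube2l6 were higher, Zdhhc5, Ypel4 and Med19 were lower and Tmx2 and Clp1 did not pass the test. Tmx2 and Clp1 were called lower with library size only (−0.30 and −0.37). Ypel4 and Med19 no longer passed with the trend with gene length removed, and the call of Med19 changed in 4 of 16 alternatives. With TMM, the largest fall among the neighbours of Serping1 was −0.69 for Ypel4, against −1.96 for Serping1. No gene within 100 kb of Cd55 was tested, and near Cd59 the single tested gene, Fbxo3, had a log2 fold change of −1.72 (edgeR adjusted p = 1.6e-06). Around Cfd, whose own groups overlapped, 7 genes were tested, 5 higher and 2 lower. The larger fall was in Arid3a (−1.15, edgeR adjusted p = 1.6e-06). The smaller was in Ptbp1 (−0.18), which turned to 0.29 with the trend with gene length removed. Around Cfb, 7 of 10 tested genes were higher, C2 was lower and 2 did not pass. Of the 7, Neu1 was called lower with library size only (−0.24) and no longer passed in 5 of 16 alternatives. Of the 2 that did not pass, Zbtb12 was called lower with library size only (−0.32). Near Cfi, Pla2g12a was higher (0.45) but did not pass with library size only, and Gar1 did not pass.

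**Figure D3:**
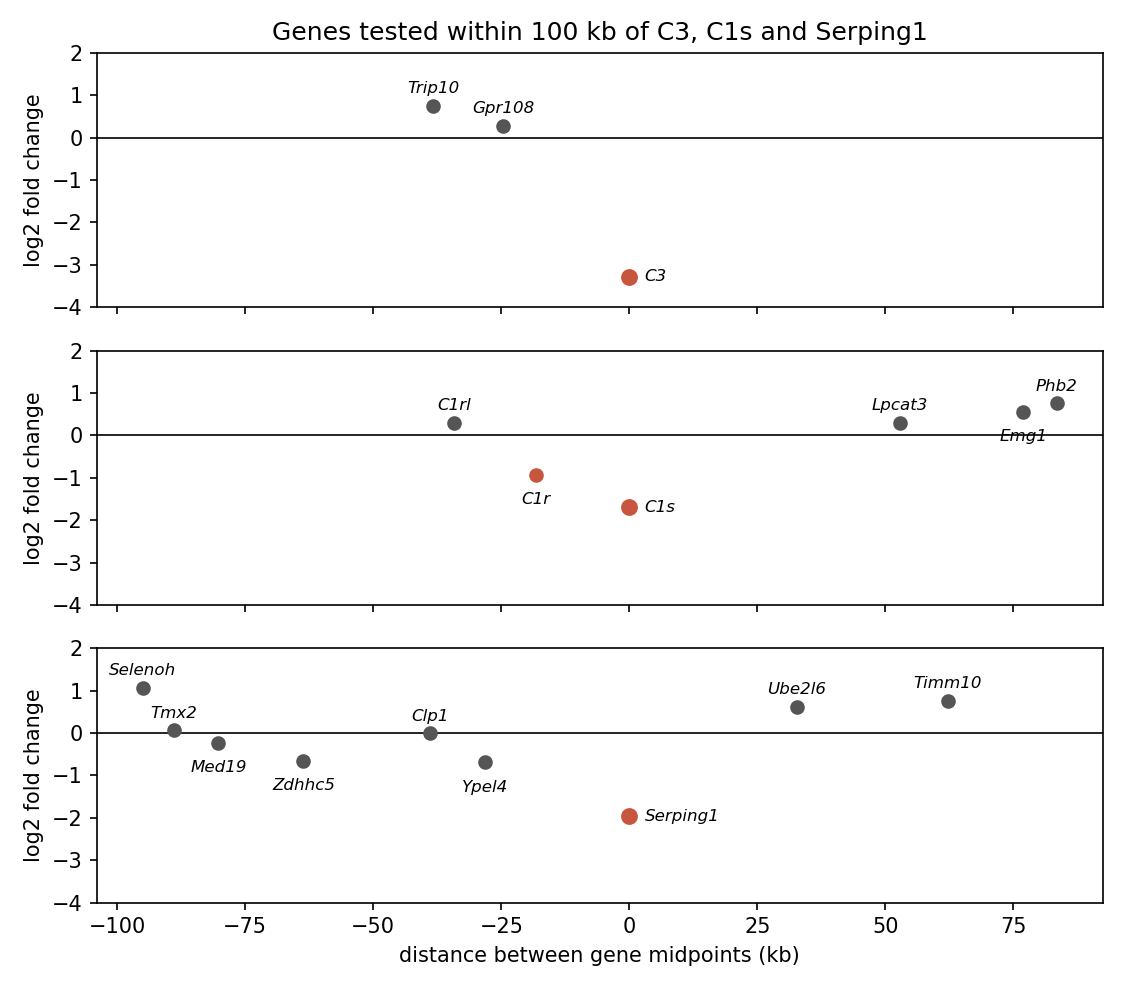
Log2 ratio of BMSCs-OE-FNDC5 to BMSCs-OE-NC for genes tested within 100 kb of C3 (top), C1s (middle) and Serping1 (bottom), against the distance between gene midpoints in kb. The complement genes are coloured, and C3 at −3.28, C1s at −1.70 and Serping1 at −1.96 are each the lowest point of their panel. C3 and C1s were known to fall strongly when the genes were chosen, so nothing is read from this place. Neighbours of the other complement genes have no panel of their own.

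C3, C1r, C1s and C1 inhibitor are classical targets of interleukin-1, interleukin-6-type cytokines and interferons, which act through NF-kB, C/EBP and STAT factors. All 22 listed receptors and factors were tested: 12 were lower in BMSCs-OE-FNDC5, 5 were higher and 5 did not pass the test, with a median log2 fold change of −0.27 beside −0.04 over all genes tested. Of all genes tested, 38.8% were called lower and 36.9% higher. The counts of the 22 shifted with the scaling, to 17 lower and 4 higher with library size only and to 9 lower and 7 higher with the trend with gene length removed. The 4 most abundant are named here. Cebpb did not pass the test, at 1824 ± 40.4 CPM in BMSCs-OE-FNDC5 and 1855 ± 60.3 CPM in BMSCs-OE-NC (SD, n = 3 each; edgeR adjusted p = 0.41). It was called lower with library size only (−0.39) and with the trend with gene length removed (−0.25).

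Cebpd, an acute-phase C/EBP factor, had 770 ± 7.62 CPM in BMSCs-OE-FNDC5 and 1040 ± 25.3 CPM in BMSCs-OE-NC, a log2 fold change of −0.43 (edgeR adjusted p = 2.5e-08). Stat3, the factor downstream of interleukin-6 receptors, had 478 ± 3.85 CPM in BMSCs-OE-FNDC5 and 630 ± 9.86 CPM in BMSCs-OE-NC, a log2 fold change of −0.40 (edgeR adjusted p = 4.6e-08) that turned to 0.17 with the trend with gene length removed. Nfkb2, a subunit of non-canonical NF-kB, was higher at 303 ± 7.90 CPM in BMSCs-OE-FNDC5 and 212 ± 2.13 CPM in BMSCs-OE-NC, with a log2 fold change of 0.52 (edgeR adjusted p = 2.8e-08; all SD, n = 3 each). The factors thus differed in direction. The receptor chains Il6st (−2.34), Osmr (−2.06) and Il1r1 (−1.93), picked out after their values were seen, had the lowest log2 fold changes of the list.

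Acute-phase proteins are secreted in inflammation by the liver and by stromal cells, often together with C3. Of 13 listed, 12 were in the table and 8 were tested, of which 7 were lower in BMSCs-OE-FNDC5 and 1 was higher, with a median log2 fold change of −2.58. Of all genes tested, 38.8% were called lower and 36.9% higher. The counts of the 8 acute-phase genes were the same with library size only and with the trend with gene length removed. Lcn2, the iron-siderophore carrier lipocalin-2, had 679 ± 9.64 CPM in BMSCs-OE-FNDC5 and 1503 ± 8.79 CPM in BMSCs-OE-NC (SD, n = 3 each), a log2 fold change of −1.15 (edgeR adjusted p = 4.5e-12). Cp, Lbp (the lipopolysaccharide-binding protein) and Hp (haptoglobin, which binds free haemoglobin) fell by more. Hp had 8.05 ± 0.775 CPM in BMSCs-OE-FNDC5 and 174 ± 3.66 CPM in BMSCs-OE-NC (SD, n = 3 each), a log2 fold change of −4.43 (edgeR adjusted p = 4.9e-13), beside −3.74 for Cp and −2.50 for Lbp. Serpina3n, a secreted serpin, was the gene that rose, with a log2 fold change of 0.59 (edgeR adjusted p = 4.8e-06).

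**Figure D4:**
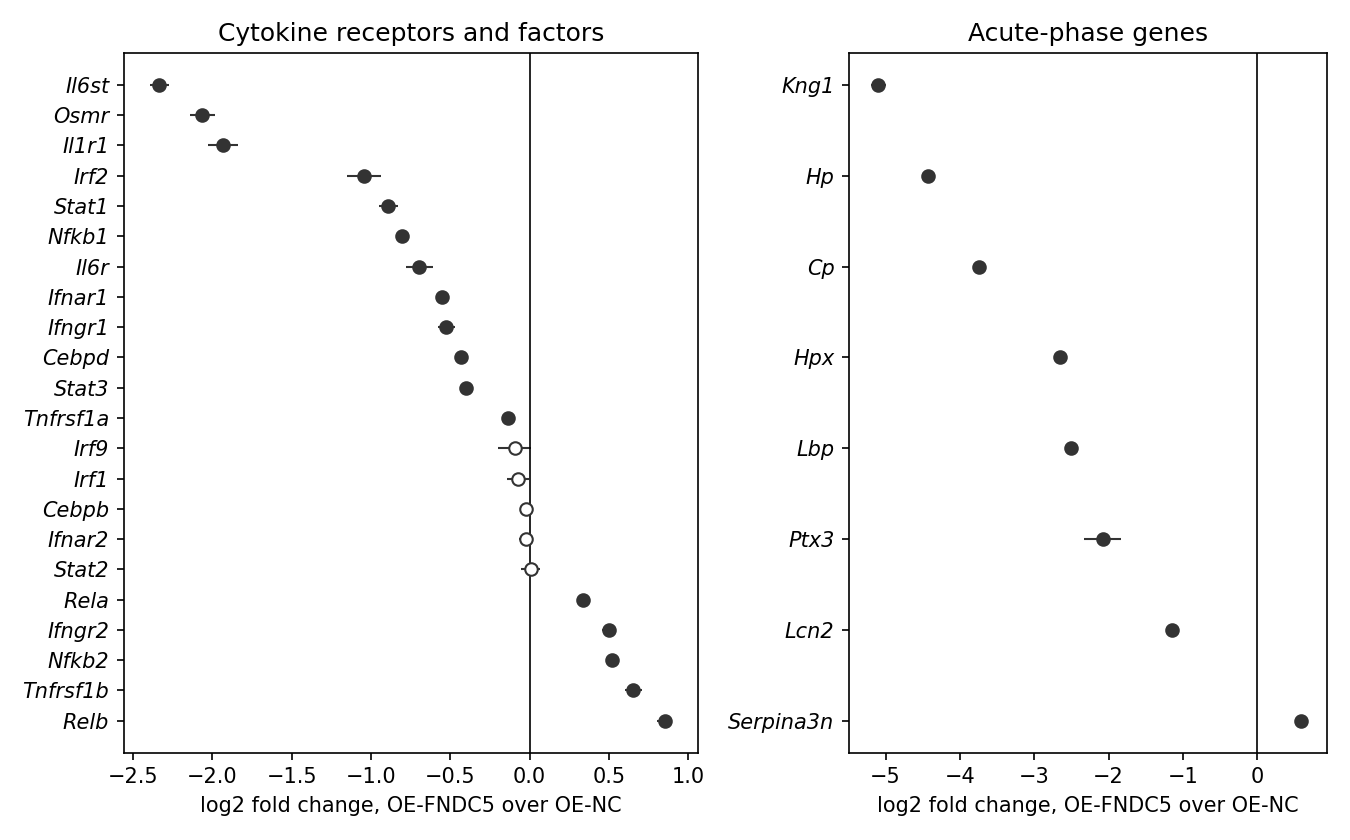
Log2 ratio of BMSCs-OE-FNDC5 to BMSCs-OE-NC for 22 listed cytokine receptors and factors (left) and for 8 acute-phase genes (right), with lines of 1 standard error. Filled points passed the edgeR test and open points did not. The left panel spreads from Il6st at −2.34 to higher values such as Nfkb2 at 0.52, and the right panel has 7 of 8 points below 0.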

How the data were processed

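Processed tables of 6 rat BMSC libraries were analysed. The deposited values are raw counts per gene and FPKM values made by the authors, whose notes list HTSeq 0.6.0, HISAT2 2.1.0, TopHat2, DESeq2, Bowtie2 2.2.3 and CASAVA with neither steps nor strand setting. FPKM as deposited equals the count over gene length and 1 constant per library. The labels also mention retinas and the mouse build, whereas the tables hold rat genes.

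Counts entered edgeR 4.0.16 (R 4.3.3) after filterByExpr (minimum count 10, total 15), with TMM and the quasi-likelihood test. The Benjamini-Hochberg adjustment covered 12104 genes, and genes were called at an adjusted p under 0.05. CPM are TMM-scaled and a log2 fold change is BMSCs-OE-FNDC5 over BMSCs-OE-NC. Counts over each library's total of 16640635 or more set the precision, so genes with few counts have wide errors.

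The members and lists were chosen with earlier results of these data known. Named genes were all 9 members, Fndc5, other complement genes averaging 1 CPM or more and the 5 genes nearest to C3. The 4 most abundant of the list of cytokine receptors and factors, and of the acute-phase list, were also named. Marker lists covered mesenchymal stem cells, macrophages, lymphocytes and granulocytes (at most 0.0682 CPM in BMSCs-OE-FNDC5 and 0.152 CPM in BMSCs-OE-NC in sum), endothelium (90.6 to 94.0 CPM in BMSCs-OE-FNDC5 and 51.8 to 55.3 CPM in BMSCs-OE-NC, nearly all Egfl7, with Cdh5 and Kdr at 0), adipocytes and hepatocytes. Alternatives were RLE or upper-quartile scaling, library size only, DESeq2 1.42.0, no filter, at least 10 counts in every library, a further log2 fold threshold of 1, limma 3.58.1 on log2(FPKM + 1) and log2(FPKM + 0.1), removal of each library's trend with gene length (lowess, span 0.3), a replicate block, and each library left out. The procedure was run on simulated data in which few genes changed, unlike these data, so that run does not check the scaling used here. Plots used matplotlib 3.10.9 under Python 3.11.15. Protein sequences and the promoters of C1s, Serping1, Cfb and Cd59 were not analysed here.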

Additional observations from a re-analysis of the deposited data

How the results depend on the processing

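All values of the 9 genes are descriptions, and each of C3, C1s, C1r, Serping1 and Cd55 kept its sign in 16 of 16 alternatives. Over all genes, library size only gave 2659 higher and 6709 lower calls instead of 4469 and 4692, and a fold threshold in addition gave 1191 higher and 2124 lower calls. With that threshold the further complement genes had 0 higher calls instead of 2 and 6 lower calls as before. Leaving out 1 library at a time gave 6 to 8 lower calls among them. Of genes that had not passed the test, Cfp changed sign to 0.33 without BMSCs-OE-FNDC5 replicate 1, with a range of −0.55 to 0.33 when each library was left out in turn. Thbd changed sign to 0.35 with the trend with gene length removed and to 0.16 without BMSCs-OE-NC replicate 1, with a range of −0.29 to 0.16 over libraries left out. Calr was called lower with library size only (−0.35, edgeR adjusted p = 5.1e-08) and upper-quartile scaling (−0.083, edgeR adjusted p = 0.0044) and higher with DESeq2 (0.052, DESeq2 adjusted p = 0.047). It changed sign without passing to −0.0091 with at least 10 counts in every library and −0.026 with the length trend removed. C5ar2, called in no other alternative, passed the test without BMSCs-OE-FNDC5 replicate 3 (log2 fold change −1.34, edgeR adjusted p = 0.024). The cause of these changes was not tested. The replicate numbers did not pair the samples (correlations of deviations 0.0213, −0.0138 and −0.0067), and with a replicate block 4399 genes were higher and 4628 lower, with 2 and 6 of the further complement genes. Low counts limit what can be seen for Cd59, Cfi, Cfb, Cfp and C5ar2.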
